A study of Mus musculus with 11 samples.

Results

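The 10 genes described here, Ucp1, Cidea, Ppargc1a, Prdm16, Dio2, Elovl3, Zic1, Gk, Pank1 and Ebf2, mark or regulate brown and beige fat cells, the heat-producing adipocytes that mice carry in the fat around the thoracic aorta. They were taken by symbol from a table of 27179 genes measured by RNA sequencing in 11 libraries of mouse aorta. Of the 10, 9 passed the filter on low counts that left 14303 genes for testing, and Zic1 did not.

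Brown and beige adipocytes burn fatty acids and glucose and release the energy as heat, because the protein UCP1 lets protons leak back across the inner mitochondrial membrane. Noradrenaline from sympathetic nerves drives this through beta-adrenergic receptors, cyclic AMP and protein kinase A, which raise both lipid breakdown and transcription of thermogenic genes. Around the mouse aorta, the thoracic fat is known to resemble brown fat and the abdominal fat to resemble white fat, so a whole aorta passes through both kinds.

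The 3 KO_HFD_LNAME libraries came from Mpst knockout mice. They had a diet with 45% of calories from fat, begun at 6 to 7 weeks of age and given for 15 weeks, and then LNAME, an inhibitor of nitric oxide synthases, for 5 weeks more. The 4 WT_HFD_LNAME libraries came from wild-type C57BL6/J mice given the same diet and inhibitor. The 4 WT_CD libraries came from wild-type mice on a chow diet with 10% of calories from fat, for which the labels give 15 weeks. The labels do not give the age at sampling. If chow mice were sampled after their 15 weeks, treated mice were also older. Diet, inhibitor and any such difference in age cannot be told apart. Mpst encodes mercaptopyruvate sulfurtransferase, a source of hydrogen sulfide, and the labels do not say how it was inactivated. The series asks how the model of metabolic syndrome, and loss of MPST within it, change vascular gene expression. Per the labels, each sample was the aortic arch, thoracic and abdominal aorta, from which the perivascular fat had been removed. Whether every library was made from its own animal is not stated, and the p-values given refer to variation among libraries, part of which may be technical.

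Libraries held 8665968 to 15340697 counts, so that 3 counts corresponded to 0.170 to 0.358 CPM, a count scaled to a common library size. Mpst had 3 to 5 counts in the knockout libraries and 265 to 532 in the wild-type ones. Smooth muscle markers were high in every library, with a summed level of 13657 to 32224 CPM over 6 genes. All 22 genes of a general adipocyte list also had counts in every library, although the fat had been removed. Their summed level was 12536 to 22246 CPM in KO_HFD_LNAME, 10126 to 44149 CPM in WT_HFD_LNAME and 4114 to 71919 CPM in WT_CD. In whole tissue, fewer fat cells and less RNA per fat cell cannot be told apart. Libraries that stood apart were WT_HFD_LNAME 3 and 4, with 897 and 2339 summed CPM of cardiac muscle genes against 49.3 to 156 in the others, and WT_CD 1 and 2, with 10.1% and 17.4% of counts from the ribosomal precursor Rn45s against 0.815% to 2.98%.

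Ucp1 and Cidea were abundant in these aortas and varied widely between libraries of the same group, while the other 8 genes were much lower. Per length, Cidea (620 ± 514 RPKM, mean ± SD over 11 libraries) and Ucp1 (570 ± 420 RPKM) stood highest among the 10 and did not differ beyond their spread. RPKM here is CPM per kilobase of annotated exon, and only this scale compares levels between genes. Elovl3 followed at 9.33 ± 8.78 RPKM, then Pank1 at 7.69 ± 6.12, Gk at 7.51 ± 4.93, Dio2 at 7.24 ± 3.09 and Prdm16 at 4.31 ± 0.819, neighbours whose spreads overlapped. Ppargc1a (1.79 ± 0.935 RPKM) and Ebf2 (0.758 ± 0.290 RPKM) were lower, and Zic1 was near the counting floor at 0.0196 ± 0.0277 RPKM. By RPKM, Ucp1 ranked 24th to 114th of the 13775 tested genes with an annotated length in each treated library, and 42nd to 3352nd in the chow libraries.

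**Figure D1:**
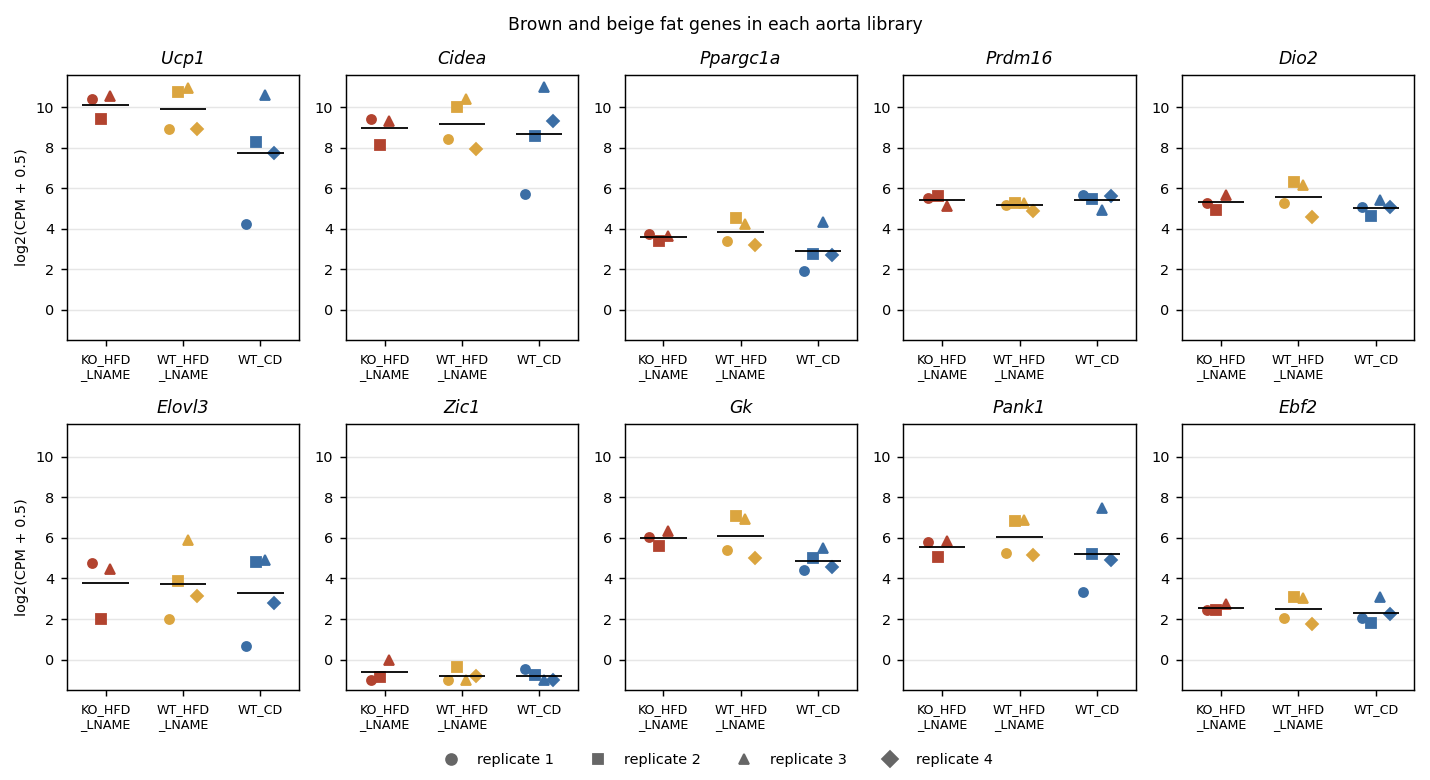
Level of each of the 10 genes as log2(CPM + 0.5) (y axis) in every library, grouped as KO_HFD_LNAME (n = 3), WT_HFD_LNAME (n = 4) and WT_CD (n = 4); marker shapes give the replicate number and horizontal lines the group means. Ucp1 and Cidea sit highest and spread widest among WT_CD libraries, Prdm16 hardly moves, and Zic1 lies at the floor in all libraries.

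Ucp1 (Entrez 22227, chromosome 8, 83290352 to 83298452, plus strand, GRCm38) encodes the proton channel of thermogenic mitochondria. It had 1369, 679 and 1479 CPM in KO_HFD_LNAME 1 to 3, and 481, 1703, 1965 and 491 CPM in WT_HFD_LNAME 1 to 4. It had 18.6, 307, 1547 and 214 CPM in WT_CD 1 to 4. The chow library WT_CD 1 was the lowest of all, WT_CD 3 lay inside the range of the treated libraries, and the 3 groups overlapped. The log2 fold change was 0.02 in KO_HFD_LNAME over WT_HFD_LNAME (SE 1.03, 95% interval -2.25 to 2.29, edgeR adjusted p = 0.999). It was 1.15 in WT_HFD_LNAME over WT_CD (SE 0.96, -0.97 to 3.28, adjusted p = 0.627) and 1.17 in KO_HFD_LNAME over WT_CD (SE 1.02, -1.08 to 3.43, adjusted p = 0.697). The raw counts behind WT_CD 1 and WT_HFD_LNAME 3, the lowest and the highest library, were 156 and 23319, so counting error is small beside this spread.

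Cidea (Entrez 12683, chromosome 18, 67343604 to 67367785) encodes a lipid-droplet protein that brown adipocytes carry in large amounts. It had 671, 278 and 636 CPM in KO_HFD_LNAME 1 to 3 and 345, 1025, 1324 and 245 CPM in WT_HFD_LNAME 1 to 4. In WT_CD 1 to 4 it had 52.9, 375, 2019 and 639 CPM. The highest and the lowest level of Cidea were thus both in chow libraries. The log2 fold change was -0.48 in KO_HFD_LNAME over WT_HFD_LNAME (SE 0.94, adjusted p = 0.961), -0.07 in WT_HFD_LNAME over WT_CD (SE 0.86, adjusted p = 0.982) and -0.55 in KO_HFD_LNAME over WT_CD (SE 0.94, adjusted p = 0.863).

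Elovl3 (Entrez 12686, chromosome 19, 46131897 to 46135694) encodes an elongase of very long chain fatty acids that is induced in brown fat by cold. It had 26.6, 3.57 and 21.9 CPM in KO_HFD_LNAME 1 to 3, and 3.56, 14.2, 59.8 and 8.35 CPM in WT_HFD_LNAME 1 to 4. In WT_CD 1 to 4 it had 1.07, 27.2, 29.9 and 6.51 CPM. Every group held at least 1 library under 4 CPM and 1 above 20 CPM, and the largest log2 fold change of the 3 comparisons was 0.41 (WT_HFD_LNAME over WT_CD, SE 0.99, adjusted p = 0.895). Without the cardiac-rich libraries WT_HFD_LNAME 3 and 4 it was -0.87.

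Gk and Pank1 serve the fuel supply of these cells. Gk (Entrez 14933, chromosome X, 85701937 to 85776819) encodes glycerol kinase, which lets brown adipocytes reuse the glycerol that lipid breakdown releases. It had 64.6, 47.3 and 80.7 CPM in KO_HFD_LNAME 1 to 3 and 41.9, 134, 119 and 31.6 CPM in WT_HFD_LNAME 1 to 4. In WT_CD 1 to 4 it had 21.1, 31.3, 44.6 and 23.2 CPM. Every KO_HFD_LNAME library lay above every WT_CD library, while WT_HFD_LNAME overlapped both other groups. Gk came nearest to a call among the 10 genes, with a log2 fold change of 1.44 in WT_HFD_LNAME over WT_CD (SE 0.45, 95% interval 0.44 to 2.44, adjusted p = 0.145). It was 1.09 in KO_HFD_LNAME over WT_CD (SE 0.48, 0.04 to 2.15, adjusted p = 0.354) and -0.35 in KO_HFD_LNAME over WT_HFD_LNAME (SE 0.48, -1.40 to 0.71, adjusted p = 0.953). DESeq2 on the same genes called Gk in WT_HFD_LNAME over WT_CD (log2 fold change 1.43, adjusted p = 0.0283). The authors' deposited table, also made with DESeq2, gives 0.98 for this comparison (SE 0.33) with an adjusted p of 0.0698. Deposited sizes may be on an unlike scale. An antisense transcript, Gm14764, shares 84 exonic bases with Gk, and without known strand their reads cannot be told apart.

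Pank1 (Entrez 75735, chromosome 19, 34806940 to 34879455) encodes a pantothenate kinase, the first enzyme of coenzyme A synthesis. It had 54.8, 32.5 and 56.4 CPM in KO_HFD_LNAME 1 to 3, 38.0, 114, 116 and 34.8 CPM in WT_HFD_LNAME 1 to 4 and 9.43, 36.2, 177 and 30.0 CPM in WT_CD 1 to 4. The 177 CPM of WT_CD 3 exceeded every other library, in the same library where Cidea was highest. Its log2 fold changes were -0.66 (SE 0.81, adjusted p = 0.950) in KO_HFD_LNAME over WT_HFD_LNAME, 0.26 (SE 0.74, adjusted p = 0.912) in WT_HFD_LNAME over WT_CD and -0.40 (SE 0.81, adjusted p = 0.888) in KO_HFD_LNAME over WT_CD. Without WT_CD 3 the last value was 0.92.

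Dio2 (Entrez 13371, chromosome 12, 90724552 to 90738438) encodes the deiodinase that makes active thyroid hormone inside the brown adipocyte. It had 38.5, 30.3 and 50.6 CPM in KO_HFD_LNAME 1 to 3, 38.1, 78.0, 71.5 and 23.7 CPM in WT_HFD_LNAME 1 to 4 and 32.9, 23.9, 42.5 and 33.0 CPM in WT_CD 1 to 4. WT_HFD_LNAME 2 and 3 stood above all other libraries, as they did for Gk, and the groups overlapped. The log2 fold change was 0.67 in WT_HFD_LNAME over WT_CD (SE 0.35, 95% interval -0.09 to 1.43, adjusted p = 0.389), -0.41 in KO_HFD_LNAME over WT_HFD_LNAME (SE 0.37, adjusted p = 0.950) and 0.26 in KO_HFD_LNAME over WT_CD (SE 0.37, adjusted p = 0.822). WT_CD 1, the chow library with 18.6 CPM of Ucp1, kept 32.9 CPM of Dio2. Gm26512, a noncoding gene on the opposite strand, shares 100 exonic bases with Dio2.

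The transcriptional regulators were low to moderate. Ppargc1a (Entrez 19017, chromosome 5, 51454250 to 51567726) encodes the coactivator PGC-1alpha, which drives mitochondrial biogenesis and Ucp1 transcription. It had 12.9, 9.97 and 12.0 CPM in KO_HFD_LNAME 1 to 3, 10.0, 22.8, 18.3 and 8.56 CPM in WT_HFD_LNAME 1 to 4 and 3.22, 6.20, 19.6 and 5.95 CPM in WT_CD 1 to 4. All but 1 of the chow libraries were below every treated library, and WT_CD 3 was above all but WT_HFD_LNAME 2. The log2 fold change was -0.36 (SE 0.53, adjusted p = 0.954) in KO_HFD_LNAME over WT_HFD_LNAME, 0.76 (SE 0.49, adjusted p = 0.513) in WT_HFD_LNAME over WT_CD and 0.40 (SE 0.53, adjusted p = 0.810) in KO_HFD_LNAME over WT_CD.

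Prdm16 (Entrez 70673, chromosome 4, 154316125 to 154636873) encodes a zinc-finger regulator that holds cells in the brown and beige fat fate and is also made in the vessel wall. It was the steadiest of the tested 9. It had 45.3, 47.9 and 34.2 CPM in KO_HFD_LNAME 1 to 3, 36.1, 37.8, 37.9 and 29.1 CPM in WT_HFD_LNAME 1 to 4 and 50.9, 43.1, 30.0 and 49.2 CPM in WT_CD 1 to 4. WT_CD 1, lowest for Ucp1 and Cidea, was the highest library for Prdm16. The log2 fold change was 0.27 (SE 0.19, 95% interval -0.15 to 0.69, adjusted p = 0.950) in KO_HFD_LNAME over WT_HFD_LNAME, -0.30 (SE 0.18, -0.69 to 0.09, adjusted p = 0.465) in WT_HFD_LNAME over WT_CD and -0.03 (SE 0.19, -0.45 to 0.39, adjusted p = 0.969) in KO_HFD_LNAME over WT_CD. B230104I21Rik, on the opposite strand, shares 109 exonic bases with Prdm16.

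Ebf2 (Entrez 13592, chromosome 14, 67233292 to 67430918), an early B cell factor that marks brown preadipocytes and opens thermogenic enhancers, ranged from 2.88 to 8.09 CPM. It had 4.93, 5.04 and 6.26 CPM in KO_HFD_LNAME 1 to 3, 3.64, 8.09, 7.84 and 2.88 CPM in WT_HFD_LNAME 1 to 4 and 3.70, 3.00, 8.05 and 4.34 CPM in WT_CD 1 to 4. The knockout libraries lay inside the range of either wild-type group, and its log2 fold changes ran from -0.05 to 0.22, with SE of 0.39 to 0.42 (adjusted p = 0.992, 0.845 and 0.906 in KO_HFD_LNAME over WT_HFD_LNAME, WT_HFD_LNAME over WT_CD and KO_HFD_LNAME over WT_CD). The antisense gene Gm10860 shares 424 exonic bases with Ebf2.

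Zic1 (Entrez 22771, chromosome 9, 91358058 to 91365810), a zinc-finger factor of classical brown fat of the interscapular depot, was at or near 0. It had 0, 1 and 7 counts in KO_HFD_LNAME 1 to 3, 0, 3, 0 and 1 counts in WT_HFD_LNAME 1 to 4 and 2, 1, 0 and 0 counts in WT_CD 1 to 4. A library with 0 counts allows a level of up to 0.231 to 0.253 CPM in the treated libraries and up to 0.210 and 0.281 CPM in WT_CD 4 and 3, counting error only. In a fit without the filter on low counts its log2 fold change was 1.02 in KO_HFD_LNAME over WT_HFD_LNAME (edgeR adjusted p = 0.912), 0.15 in WT_HFD_LNAME over WT_CD (adjusted p = 1) and 1.17 in KO_HFD_LNAME over WT_CD (adjusted p = 0.782). The knockout counts are mostly the 7 of KO_HFD_LNAME 3, and no difference was detectable at this depth. Its relative Zic4 had 0 counts in all libraries, and Zic2 and Zic5 had at most 2 and 1 counts.

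Promoter sequence was looked up in RefSeq windows of GRCm38.p6, from 250 bases before to 50 bases after the start of the gene, which held 7 of the 10 genes. Short motifs were searched on both strands. The Ucp1, Dio2, Ppargc1a and Prdm16 windows are shown because they span the behaviours above, from the widest spread to the narrowest, with each motif found in capitals.
Ucp1 (chr8:83290098-83290397, plus strand): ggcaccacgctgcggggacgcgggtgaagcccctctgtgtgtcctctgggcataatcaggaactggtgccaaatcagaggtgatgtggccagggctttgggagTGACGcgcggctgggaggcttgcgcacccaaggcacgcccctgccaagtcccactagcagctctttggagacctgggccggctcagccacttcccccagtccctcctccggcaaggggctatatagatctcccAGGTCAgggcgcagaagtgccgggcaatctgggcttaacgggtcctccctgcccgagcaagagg
Dio2 (chr12:90738989-90739288, minus strand): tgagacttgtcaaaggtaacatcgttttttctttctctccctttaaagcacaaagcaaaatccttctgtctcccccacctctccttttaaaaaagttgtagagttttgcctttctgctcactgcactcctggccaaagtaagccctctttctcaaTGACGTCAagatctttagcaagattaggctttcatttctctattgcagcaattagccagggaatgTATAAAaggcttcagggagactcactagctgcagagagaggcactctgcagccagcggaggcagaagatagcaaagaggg
Ppargc1a (chr5:51567676-51567975, minus strand): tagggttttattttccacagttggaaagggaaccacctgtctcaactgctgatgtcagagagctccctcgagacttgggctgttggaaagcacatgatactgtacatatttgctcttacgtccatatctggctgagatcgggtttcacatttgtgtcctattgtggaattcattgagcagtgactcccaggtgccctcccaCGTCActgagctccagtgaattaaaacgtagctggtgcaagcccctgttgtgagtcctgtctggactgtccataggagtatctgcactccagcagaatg
Prdm16 (chr4:154636824-154637123, minus strand): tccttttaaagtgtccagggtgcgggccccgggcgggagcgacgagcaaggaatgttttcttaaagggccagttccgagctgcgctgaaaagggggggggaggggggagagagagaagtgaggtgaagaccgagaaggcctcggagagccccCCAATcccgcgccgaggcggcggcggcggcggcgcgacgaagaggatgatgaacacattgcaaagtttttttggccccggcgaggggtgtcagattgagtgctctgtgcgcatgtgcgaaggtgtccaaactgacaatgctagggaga
The Ucp1 window holds TGACG, the core of the cyclic AMP response element, 147 bases before the start, and AGGTCA, a nuclear receptor motif, 14 bases before it. The Dio2 window follows the RefSeq start, which lies upstream of the annotated gene given above, so the distances for Dio2 refer to RefSeq alone. The Dio2 window holds the full element TGACGTCA at 95 bases before the start, which contains TGACG on each strand, and a TATA box (TATAAA) at 30 bases before it. The Ppargc1a window holds TGACG on its reverse strand (printed as CGTCA) at 49 bases before the start. The Prdm16 window has none of these and a CCAAT box alone. Of all 32851 windows of this length, 20.8% hold TGACG, 1.79% TGACGTCA, 16.3% AGGTCA, 13.6% TATAAA and 37.4% CCAAT, so only the full element of Dio2 is uncommon. The core of the EBF motif, CCCNNGGG, is in 13.7% of all windows and in none of those of the 7 genes. Of the genes not shown, Gk holds TGACG, Zic1 holds CCAAT, and Pank1, which has 2 windows, holds TATAAA in the first and CCAAT in the second. A match of letters is not a bound site, and distal enhancers such as that of Ucp1 lie outside these windows.

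In the comparison of KO_HFD_LNAME with WT_HFD_LNAME, which asks what loss of MPST does in treated mice, 0 of the 9 tested members were called by edgeR's quasi-likelihood test (adjusted p under 0.05), against 0.014% of all tested genes. At an unadjusted p under 0.05 there were also 0 members, against 5.12% of all genes, and DESeq2 called 0 as well. Prdm16 and Ucp1 had log2 fold changes above 0 and the other 7 below, with a median of -0.35 over the 9, against -0.01 over all genes tested. The 2 groups overlapped for all 9 members, while 7.87% of all tested genes had libraries that did not overlap. The 95% intervals of the log2 fold change are wide, from -2.25 to 2.29 for Ucp1, -2.54 to 1.59 for Cidea, -2.67 to 2.05 for Elovl3 and -2.46 to 1.13 for Pank1. A change inside these bounds was not detectable with these libraries.

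In the comparison of WT_HFD_LNAME with WT_CD, which asks what the diet with LNAME does in wild-type mice, edgeR again called 0 of 9 members, against 1.48% of all tested genes. Gk was the 1 member with an unadjusted p under 0.05, against 15.1% of all genes. Members above 0 were 7 of 9, with a median of 0.41 against -0.03 over all genes, and again no member had groups that did not overlap, against 7.85% of all genes. In KO_HFD_LNAME against WT_CD, 0 of 9 members were called by either tool, against 0.315% of all genes by edgeR. Gk alone had an unadjusted p under 0.05 there (13.3% of all genes), and Gk alone had groups that did not overlap (13.1% of all genes). Members above 0 were 6 of 9, with a median of 0.18 against -0.04 over all genes. These counts at an unadjusted p depend on WT_CD 3, the chow library with the most adipocyte transcript. Without it they were 5 of 9 in WT_HFD_LNAME over WT_CD (Ucp1, Ppargc1a, Gk and Pank1 above 0, Prdm16 below). They were 3 of 9 in KO_HFD_LNAME over WT_CD (Ucp1, Ppargc1a and Gk above 0), and 0 members were called by edgeR in either. Over all genes the counts at an unadjusted p under 0.05 rose too, from 2161 and 1902 with all libraries to 3568 and 2470. Ucp1 then had log2 fold changes of 2.69 (SE 0.87, edgeR adjusted p = 0.102) and 2.71 (SE 0.89, adjusted p = 0.166), and the Ppargc1a value of 1.52 in WT_HFD_LNAME over WT_CD came nearest to a call (adjusted p = 0.0505). With any other single library left out the counts of members were 1 or 2, and 0 or 1. The comparisons share libraries, so these results are not independent of each other.

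**Figure D2:**
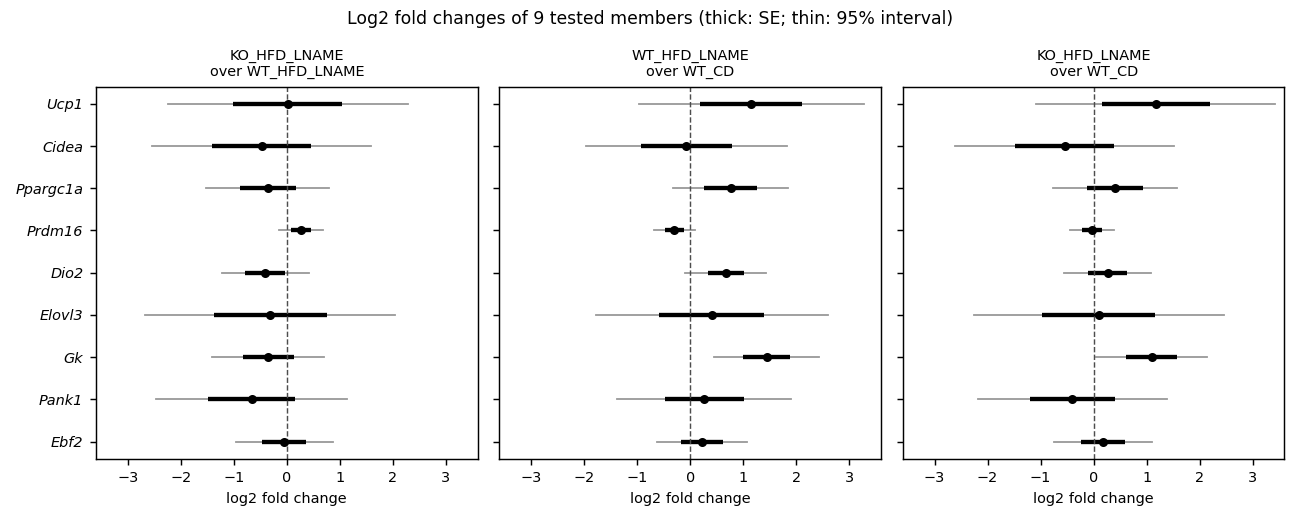
Log2 fold change (x axis) of the 9 tested genes (rows) in KO_HFD_LNAME over WT_HFD_LNAME, WT_HFD_LNAME over WT_CD and KO_HFD_LNAME over WT_CD; points are edgeR estimates, thick bars the SE and thin bars the 95% interval. Intervals include 0 for every gene except Gk in the 2 comparisons with WT_CD, and they are widest for Ucp1, Cidea and Elovl3 and narrowest for Prdm16.

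The spread between libraries was itself unequal among the members. From the lowest to the highest of 11 libraries the level differed 106-fold for Ucp1, 55.7-fold for Elovl3, 38.2-fold for Cidea and 18.8-fold for Pank1. It differed 7.07-fold for Ppargc1a, 6.32-fold for Gk, 3.29-fold for Dio2, 2.81-fold for Ebf2 and 1.75-fold for Prdm16. The SD of log2(CPM + 0.5) for Ucp1 was 1.95, larger than that of 99.6% of tested genes. That of Prdm16 was 0.28, larger than that of 44.9% of them and near the median of 0.30.

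Most members followed Adipoq, the gene of the hormone adiponectin that white and brown adipocytes share. Adipoq had 371, 369 and 507 CPM in KO_HFD_LNAME 1 to 3, 311, 721, 1088 and 191 CPM in WT_HFD_LNAME 1 to 4 and 37.5, 167, 876 and 447 CPM in WT_CD 1 to 4. Over the 11 libraries, Pearson's r of log2(CPM + 0.5) with Adipoq was 0.90 for Ucp1 (Spearman's rho 0.85), and permutation p-values adjusted over the 9 relations computed were 0.0018 and 0.0054 (unadjusted 0.00081 and 0.002). Without WT_HFD_LNAME 3 and WT_CD 1, the libraries farthest from the median of Adipoq, r for Ucp1 was 0.66, and within groups it was 0.92. For Cidea r was 0.95 and rho 0.89 (adjusted permutation p = 0.00045 and 0.0038), and 0.85 without those libraries.

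Prdm16 was the exception, with r = -0.41 and rho = -0.31 to Adipoq (permutation p = 0.21 and 0.36). Pank1 (r = 0.90, rho 0.79), Ppargc1a (0.88, 0.80), Ebf2 (0.77, 0.86), Gk (0.72, 0.74), Elovl3 (0.69, 0.62) and Dio2 (0.64, 0.84) all had positive relations. Their adjusted permutation p-values were 0.00075 to 0.036 for r and 0.0054 to 0.055 for rho, the last for Elovl3. The relation of Elovl3 rested on the outermost libraries, since r was 0.21 without them, while the others kept r of 0.54 to 0.96. For Dio2 and Ebf2, WT_CD 1 lay off the line of the other libraries, with little Adipoq but a level of either gene within the range of the rest. Other genes followed these members more closely than Adipoq did. Of 12799 tested genes outside the members, 99.2% had a lower r with Ucp1 than Adipoq had. For Cidea this was 98.1%, for Dio2 91.0% and for Prdm16 20.8%. How many genes follow Adipoq as closely was not computed, so the relation cannot be read as particular to the members.

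**Figure D3:**
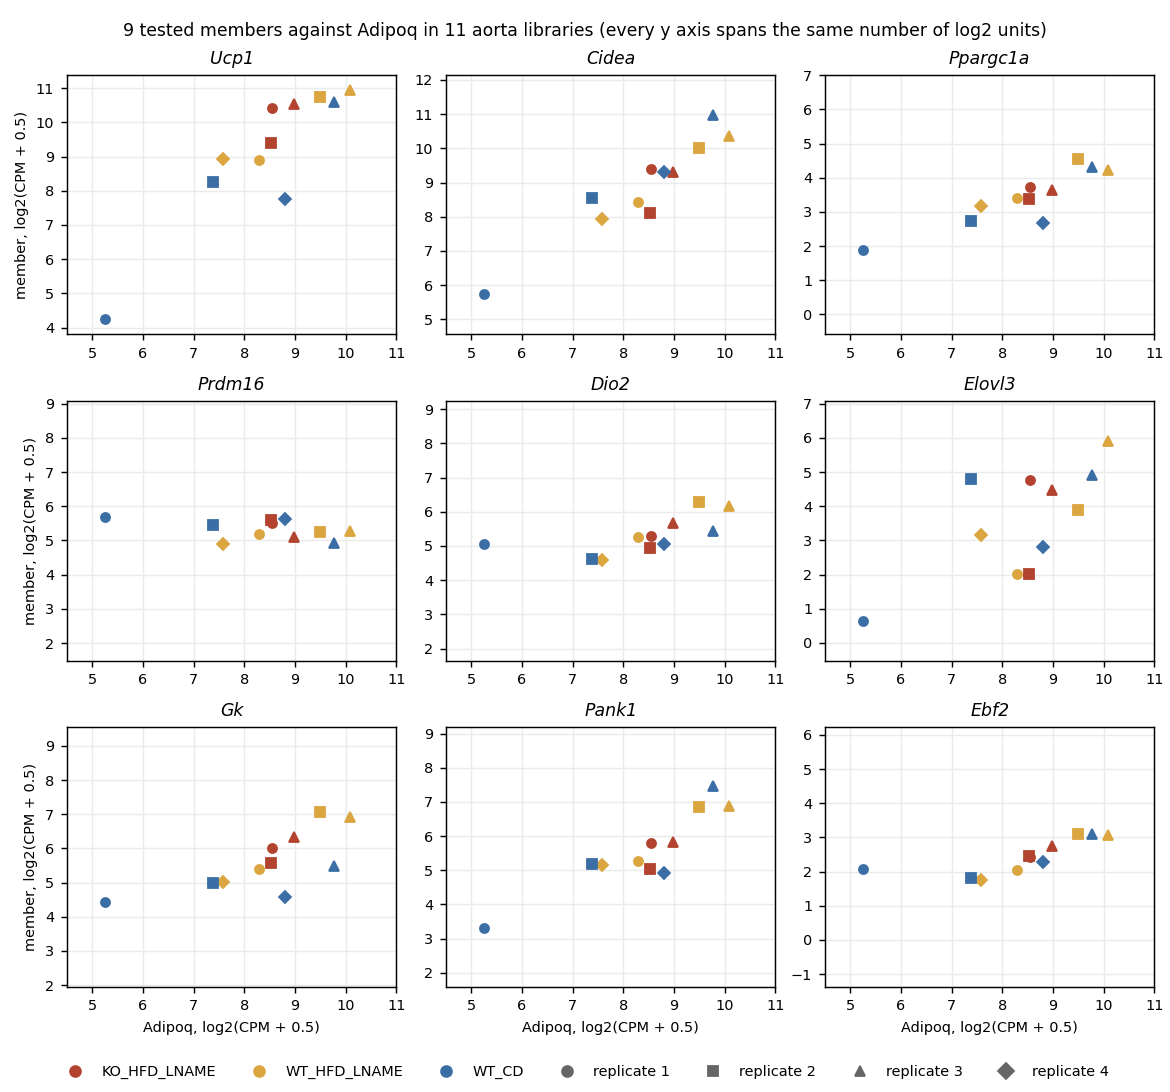
Level of the 9 tested genes (y axes, log2(CPM + 0.5), all of equal span) against Adipoq (x axis, same scale) in 11 libraries; colours give the group and shapes the replicate number. Ucp1, Cidea, Ppargc1a and Pank1 climb with Adipoq from WT_CD 1 at the far left, whereas Prdm16 is level across the whole range.

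A fit with the mean level of the general adipocyte list as a covariate compared libraries at equal adipocyte marker level. It called 0 of the 9 members in each comparison. At an unadjusted p under 0.05 there were 3 members in WT_HFD_LNAME over WT_CD, beside 2861 of the 14303 tested genes. In KO_HFD_LNAME over WT_CD there were 2 members, beside 3276 of all tested genes. At an adjusted p under 0.05, called genes over the whole table numbered 7 in KO_HFD_LNAME over WT_HFD_LNAME, 771 in WT_HFD_LNAME over WT_CD and 651 in KO_HFD_LNAME over WT_CD. The SE of Ucp1 fell by more than a factor of 2: its log2 fold change was 1.08 in WT_HFD_LNAME over WT_CD (SE 0.42, edgeR adjusted p = 0.189) and 1.47 in KO_HFD_LNAME over WT_CD (SE 0.45, adjusted p = 0.0902).

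Ucp1 relative to Adipoq was higher on average in the treated groups than in WT_CD. The exact test could call no comparison, because too few libraries were at hand. The smallest exact p possible is 0.0571 for 3 against 4 libraries and 0.0286 for 4 against 4. The ratio of the 2 CPM values (each plus 0.5) was 3.68, 1.84 and 2.91 in KO_HFD_LNAME 1 to 3 and 1.55, 2.36, 1.81 and 2.56 in WT_HFD_LNAME 1 to 4. It was 0.503, 1.84, 1.77 and 0.480 in WT_CD 1 to 4, so that WT_CD 2 and 3 lay beside the treated libraries and WT_CD 1 and 4 far below. The mean log2 ratio differed by 0.41 between KO_HFD_LNAME and WT_HFD_LNAME (two-sided exact permutation p = 0.229) and by 1.11 between WT_HFD_LNAME and WT_CD (exact p = 0.143). Between KO_HFD_LNAME and WT_CD it differed by 1.52, and every knockout library lay above every chow library by a narrow margin (exact p = 0.0571, the smallest that 3 against 4 libraries allow). Adjusted over the 3 comparisons these exact p-values were 0.229, 0.214 and 0.171. No set of values could have brought an adjusted one under 0.05, so the lack of a call does not show equal ratios.

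Cidea relative to Adipoq had the opposite sign, and here too no adjusted exact p-value could fall under 0.05. The ratio was 1.81, 0.753 and 1.25 in KO_HFD_LNAME 1 to 3, 1.11, 1.42, 1.22 and 1.28 in WT_HFD_LNAME 1 to 4 and 1.41, 2.24, 2.30 and 1.43 in WT_CD 1 to 4. WT_HFD_LNAME and WT_CD overlapped only in that WT_HFD_LNAME 2 was just above WT_CD 1. The mean log2 ratio differed by -0.07 between KO_HFD_LNAME and WT_HFD_LNAME (exact permutation p = 0.8), by -0.52 between WT_HFD_LNAME and WT_CD (exact p = 0.0571, adjusted 0.171) and by -0.59 between KO_HFD_LNAME and WT_CD (exact p = 0.229, adjusted 0.343).

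The ratio of Ucp1 to Cidea was looked at after these values were seen and is given without a test. It was 2.04, 2.44 and 2.32 in KO_HFD_LNAME 1 to 3, 1.40, 1.66, 1.48 and 2.002 in WT_HFD_LNAME 1 to 4 and 0.358, 0.818, 0.766 and 0.336 in WT_CD 1 to 4. The ratio is of CPM and not per length, so it orders libraries and does not say which gene stood higher in one. Every chow library had a lower ratio than every treated library, and the 3 groups did not overlap, although the gap between KO_HFD_LNAME 1 and WT_HFD_LNAME 4 was small. Of the 36 ratios between 2 tested members, 3 had groups that did not overlap in each of the 3 comparisons. Ucp1 to Cidea and Ucp1 to Pank1 were among the 3 each time. Among single tested genes, 7.87% did not overlap in KO_HFD_LNAME against WT_HFD_LNAME, 7.85% in WT_HFD_LNAME against WT_CD and 13.1% in KO_HFD_LNAME against WT_CD. No such share was computed for ratios between other genes, so these ratios cannot be read as particular to the members.

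**Figure D4:**
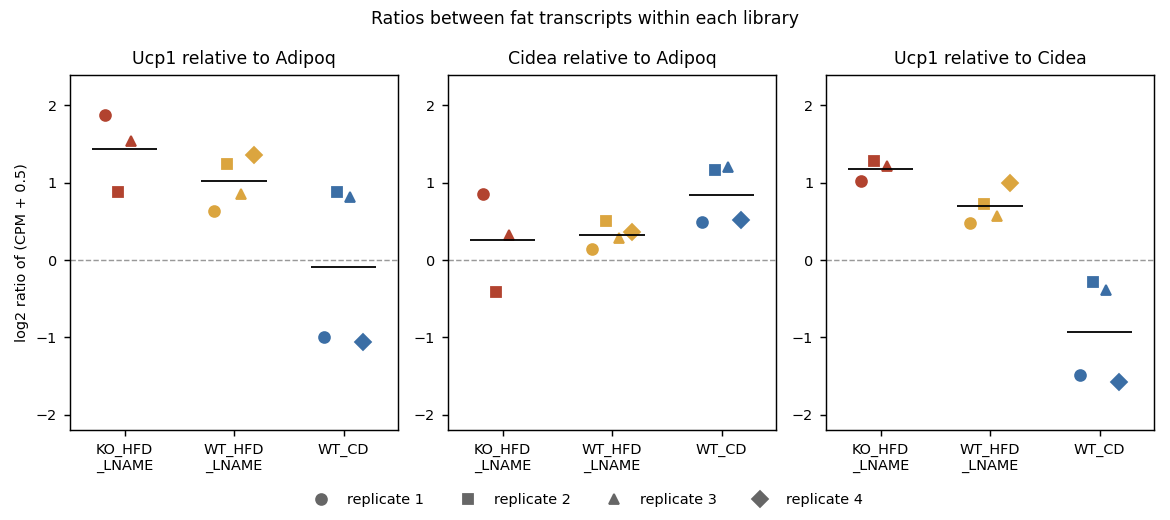
Log2 ratio (y axis) of Ucp1 to Adipoq, Cidea to Adipoq and Ucp1 to Cidea, each of CPM + 0.5, in every library of KO_HFD_LNAME (n = 3), WT_HFD_LNAME (n = 4) and WT_CD (n = 4); lines are group means and shapes replicate numbers. Of the ratios drawn, only Ucp1 to Cidea separates the 3 groups, with all WT_CD libraries below all treated ones. That ratio was chosen after the values were seen, and the ratios are not per length.

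Among the members themselves, levels across libraries were most alike for Ppargc1a and Pank1 (r = 0.95), Cidea and Pank1 (0.95) and Ucp1 and Ppargc1a (0.93). Dio2 and Ebf2 (0.87) and Dio2 and Gk (0.86) formed closer pairs than Dio2 with Ucp1 (0.55). Prdm16 had an r below 0 with each of the other 8, from -0.60 to -0.18. These correlations describe 11 libraries that share their adipocyte content and RNA composition, and are given without p-values.

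**Figure D5:**
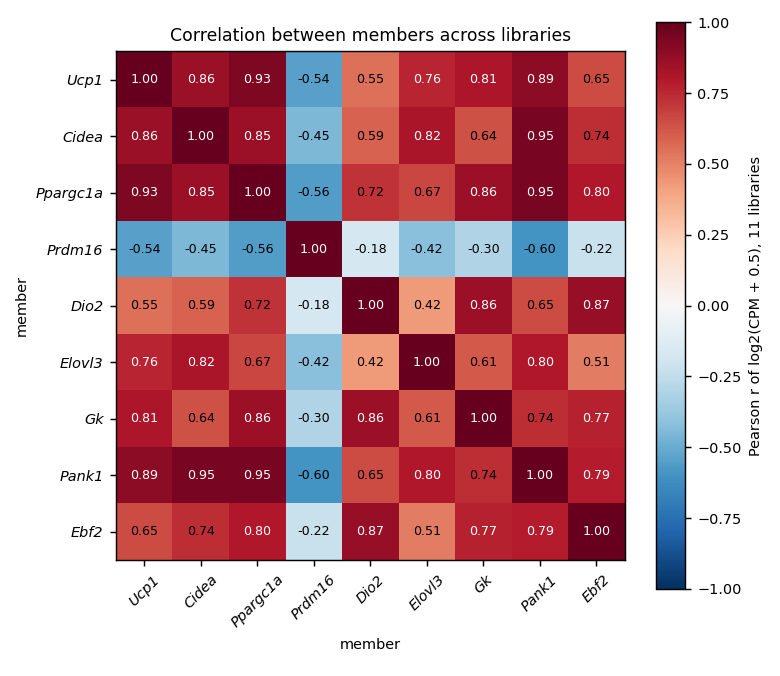
Pearson r of log2(CPM + 0.5) over 11 libraries between each pair of the 9 tested genes (both axes), with r printed in each cell and colour from -1 (blue) to 1 (red). The row and column of Prdm16 are the ones with r below 0, and Ucp1, Cidea, Ppargc1a and Pank1 form the block of highest r.

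Of 12799 other tested genes with a mean of at least 1 CPM, those most like Ucp1 across libraries were Igsf21 (r = 0.98), Ptk2b (0.98), the long noncoding RNA Lncbate1 (0.97), the proton channel gene Otop1 (0.97) and Pkp2 (0.97). Cidea was most like Prxl2a, the adiponectin receptor gene Adipor2 and the amino acid transporter gene Slc36a2 (r = 0.99 each). Pank1 was most like 3 genes of mitochondrial proteins, Ghitm, Idh3a and Sucla2 (0.99 each), and Ppargc1a like Uba3, the nuclear receptor gene Esrrg and the noncoding RNA Lncbate10 (0.99, 0.98 and 0.98). Tmem106a (0.95) and Timm50 (0.94) were among the genes most like Ebf2, and Gk was most like Eif1a (0.95), Fam131c (0.94) and Tlr3 (0.94). Dio2 was most like Ppm1m (0.93), Dlc1 (0.91) and Dnajc24 (0.91), and Elovl3 like Slc35g1 (0.94), Tlk2 (0.92) and Qrsl1 (0.91). Prdm16 was most like the noncoding RNA Prdm16os, whose gene adjoins it (0.87), Lmcd1 (0.86) and Cfap210 (0.86).

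Other genes of the thermogenic program gave the same picture. Of 24 further thermogenic genes 21 were tested and 0 were called in any comparison, with median log2 fold changes of -0.41, 0.30 and 0.08 in KO_HFD_LNAME over WT_HFD_LNAME, WT_HFD_LNAME over WT_CD and KO_HFD_LNAME over WT_CD. The mitochondrial respiratory subunit gene Cox8b, 1 of the 3 highest of that list by CPM, averaged 340 ± 144 CPM in KO_HFD_LNAME, 508 ± 316 CPM in WT_HFD_LNAME and 321 ± 297 CPM in WT_CD (SD, n = 3, 4 and 4). Cox7a1, another such subunit gene, averaged 142 ± 62.7 CPM in KO_HFD_LNAME, 215 ± 125 CPM in WT_HFD_LNAME and 135 ± 131 CPM in WT_CD. Pdk4, the gene of a kinase that turns off pyruvate dehydrogenase, averaged 271 ± 83.0 CPM in KO_HFD_LNAME, 441 ± 222 CPM in WT_HFD_LNAME and 578 ± 661 CPM in WT_CD. In all 3 genes the spread within WT_CD was nearly as large as, or larger than, its mean. The thermogenic gene Cpt1b had at most 4 counts in any library, and the overlapping gene Gm44502 shares 2744 of its 3372 exonic bases on the same strand.

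Of 10 genes described as beige fat markers in mice, 7 were tested and 0 called, with a median log2 fold change of 0.24 in WT_HFD_LNAME over WT_CD and 0.41 in KO_HFD_LNAME over WT_CD. The 3 of highest mean CPM among the 10 were Slc27a1 (374 to 2992 counts a library), Klhl13 (213 to 623) and Tbx1 (48 to 173). Tnfrsf9, Cited1 and Shox2 had at most 11, 7 and 5 counts in any library. All 20 partner regulators of the members were tested and 0 called, and so it was for 13 of 14 genes of the adrenergic and cyclic AMP signal, 6 of 8 of thyroid hormone handling, 11 of 12 of glycerol and coenzyme A metabolism and 10 of 11 of heat from creatine and calcium cycling. Adrb3, the gene of the beta3-adrenergic receptor of fat cells, ranged from 76 to 3124 counts.

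Relatives from the same gene families showed which paralogs these aortas carried. Of 27 such genes 19 were tested and 0 called. Ucp2 lay between 7.02 and 16.3 RPKM and Ucp3 between 0.266 and 17.4 RPKM, against 11.4 to 1201 RPKM for Ucp1. Cidec, a lipid-droplet gene of white and brown fat, ranged from 15.2 to 522 RPKM, against 47.4 to 1811 RPKM for Cidea. Dio1 and Dio3, the other deiodinase genes, had at most 3 and 6 counts, so Dio2 gave nearly all deiodinase counts.

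Markers of several other cell types moved with the groups, and their part in the results for the 10 genes was not tested. Leptin (Lep), a hormone mainly of white adipocytes, had 99.7 to 130 CPM in KO_HFD_LNAME, 26.9 to 91.6 CPM in WT_HFD_LNAME and 1.70 to 14.8 CPM in WT_CD. Lep was the 1 of 22 general adipocyte genes called (WT_HFD_LNAME over WT_CD 3.02, edgeR adjusted p = 0.0371, and KO_HFD_LNAME over WT_CD 4.12, adjusted p = 0.0304). Genes of that list above 0 numbered 18 of 22 in WT_HFD_LNAME over WT_CD (median log2 fold change 0.30). In KO_HFD_LNAME over WT_CD they numbered only 6 of 22 (median -0.15), so Lep does not stand for the list. Of 9 sympathetic nerve genes all were above 0 in both comparisons with WT_CD, with a median log2 fold change of 5.54 in WT_HFD_LNAME over WT_CD and 4.21 in KO_HFD_LNAME over WT_CD. In WT_HFD_LNAME over WT_CD 7 were called higher (Th, Dbh, Npy, Stmn2, Elavl3, Elavl4 and Prph). In KO_HFD_LNAME over WT_CD 0 were called, although all 7 had knockout libraries above every chow library, and the adjusted p was 0.0622 for Th, 0.0659 for Dbh and 0.0798 for Stmn2. Stmn2, a neuronal microtubule regulator, averaged 24.6 ± 14.1 CPM in KO_HFD_LNAME, 54.5 ± 27.7 CPM in WT_HFD_LNAME and 5.11 ± 1.57 CPM in WT_CD (SD, n = 3, 4 and 4). The summed level of the 9 nerve genes was 129 to 319 CPM in KO_HFD_LNAME, 95.6 to 716 CPM in WT_HFD_LNAME and 67.1 to 131 CPM in WT_CD, and Th, the rate-limiting enzyme of noradrenaline synthesis, had 0 counts in WT_CD 2 to 4 and 1 in WT_CD 1. WT_HFD_LNAME 3, with the highest Ucp1 level of all, had the lowest nerve sum of the treated libraries (95.6 CPM). WT_CD 1, with the lowest Ucp1 level, had the lowest nerve sum of all (67.1 CPM). A relation of the nerve sum to Ucp1 was not tested.

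All 8 endothelial genes were above 0 in both comparisons with WT_CD, with median log2 fold changes of 1.35 in WT_HFD_LNAME over WT_CD and 1.13 in KO_HFD_LNAME over WT_CD. Their summed level was 599 to 771 CPM in KO_HFD_LNAME, 609 to 1081 CPM in WT_HFD_LNAME and 191 to 481 CPM in WT_CD. Sox17, a transcription factor of arterial endothelium, averaged 16.1 ± 1.35 CPM in KO_HFD_LNAME, 23.9 ± 3.83 CPM in WT_HFD_LNAME and 9.08 ± 0.888 CPM in WT_CD, and was called in both (edgeR adjusted p = 0.00948 for WT_HFD_LNAME and 0.0483 for KO_HFD_LNAME over WT_CD). Emcn, the endothelial sialoprotein endomucin, was called in WT_HFD_LNAME over WT_CD (2.02, adjusted p = 0.0473) and was 1.51 in KO_HFD_LNAME over WT_CD (adjusted p = 0.174). All 5 mesothelial genes were above 0 in the same 2 comparisons and 0 were called. Their summed level was 18.7 to 165 CPM in KO_HFD_LNAME, 1.46 to 56.4 CPM in WT_HFD_LNAME and 0.358 to 2.34 CPM in WT_CD. Of the B cell genes, 4 of 5 were tested and all 4 were above 0 over WT_CD. Ighm, the heavy chain of immunoglobulin M, was called in WT_HFD_LNAME over WT_CD (2.96, adjusted p = 0.0497) and was 3.79 in KO_HFD_LNAME over WT_CD (adjusted p = 0.0507). Myh1, a skeletal muscle myosin, was called in WT_HFD_LNAME over WT_CD (adjusted p = 0.0288) on 7 to 12 counts a library in WT_HFD_LNAME and at most 1 in WT_CD.

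The authors' deposited tables, which cover KO_HFD_LNAME over WT_HFD_LNAME and WT_HFD_LNAME over WT_CD, list all 10 genes and give none an adjusted p under 0.05. In these tables Ucp1 has log2 fold changes of 0.02 (adjusted p = 0.996) and 0.33 (adjusted p = 0.792) and Zic1 has no adjusted p. For Ucp1 in WT_HFD_LNAME over WT_CD, the deposited 0.33 (SE 0.32) is smaller than the 1.15 (SE 0.96) of the fit made here. Zic1 in KO_HFD_LNAME over WT_HFD_LNAME has a deposited 0.06 (SE 0.11), against 1.02 in the fit without the filter. Value and SE of Ucp1 are both smaller, so deposited sizes may be on an unlike scale. Whether they were shrunk toward 0 was not tested.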

How the data were processed

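Per the labels' protocols, TRIzol was used for aorta RNA and a NEBNext Ultra II RNA kit for the libraries. Per the submitters' processing notes, reads were trimmed with Trimmomatic 0.39, aligned with HISAT2 2.2.1 (GRCm38/mm10) and assigned to genes by featureCounts 2.0.3. The strand setting and annotation are not given in the sources used here. The authors deposited whole-number counts per gene without normalization. The authors also deposited, for 2 of the comparisons, DESeq2 (Galaxy version 2.11.40.7) results with a log2 fold change and its standard error, here read as log2 values. Those deposited tables hold a base mean (a normalized signal), a test statistic (a score) and a raw and an adjusted p-value.

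All 11 libraries entered edgeR 4.0.16 (R 4.3.3): filterByExpr over 3 groups, TMM scaling, 1 robust quasi-likelihood fit with 1 mean per group, a two-sided test per comparison and Benjamini-Hochberg adjustment over the 14303 genes kept. A gene was called where the adjusted p was under 0.05. SE came from the F statistic. CPM used TMM-scaled sizes, and RPKM used exon lengths of GENCODE M21, which matched 23882 of 27179 genes by Ensembl ID. The pseudocount on the log2 scale was 0.5. Ratios within libraries were compared by exact permutation of libraries, and relations with Adipoq by 100000 permutations. The tests were checked on simulated counts. No 2 libraries of a group agreed within sampling noise.

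Named genes are all 10 members and, from each of 17 lists, every called gene or otherwise the 3 of highest mean CPM, plus Adipoq, Plin1, Lep and genes at or near 0 counts; likeness was ranked by Pearson's r. Of the genes this rule names, the called ones are printed and most of the others are covered by the counts of their lists; some are not reported here. Cpt1b, Adrb3, Ucp3 and the low-count relatives were named for their level. Members and lists were chosen with earlier results of these data known. Alternatives were DESeq2 1.42.0, RLE size factors, no filter, a replicate block, fits of 2 groups, removal of Rn45s and mitochondrial genes, an adipocyte covariate, another pseudocount or denominator for ratios, and leaving out libraries.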

Additional observations from a re-analysis of the deposited data

Results flagged for a closer look

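A search for single libraries far from the rest of their group, in WT_HFD_LNAME and WT_CD, covered the CPM of all 10 genes, the ratio of the 9 tested genes to Adipoq and the ratio of Ucp1 to Cidea. WT_CD 3 held 177 CPM of Pank1, against 9.43, 36.2 and 30.0 CPM in WT_CD 1, 2 and 4, a gap that chance gives in about 1 in 20 groups. Among 40 such checks this was the 1 flag, not more than that rate would give. The same library had 71919 summed CPM of the general adipocyte list, against 4114 to 25902 in the other chow libraries, and the highest Cidea level of all 11 libraries. Whether these belong together was not tested.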

How the results depend on the processing

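The count of 0 members called in each comparison stood under every edgeR alternative run, and DESeq2 called 1 member, Gk, in WT_HFD_LNAME over WT_CD. Called genes over the whole table, listed for KO_HFD_LNAME over WT_HFD_LNAME (2), WT_HFD_LNAME over WT_CD (212) and KO_HFD_LNAME over WT_CD (45), numbered 38, 890 and 567 with DESeq2 and 7, 771 and 651 with the adipocyte covariate. They numbered 1, 31 and 3 in fits of only the 2 groups compared. Without the filter they numbered 138 and 29 in the comparisons with WT_CD. Without WT_CD 1 and 2 they numbered 0 for WT_HFD_LNAME over WT_CD by edgeR, where 1627 genes had an unadjusted p under 0.05, and 4 for KO_HFD_LNAME over WT_CD; DESeq2 was not run without these libraries. Without WT_HFD_LNAME 3 and 4 they numbered 1 for KO_HFD_LNAME over WT_HFD_LNAME and 59 for WT_HFD_LNAME over WT_CD. With single libraries left out the ranges were 1 to 3, 2 (without WT_CD 2) to 521 (without WT_CD 3) and 4 (without KO_HFD_LNAME 2) to 102 (without WT_CD 3). The causes were not tested.

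Log2 fold changes of members that turned sign, listed here, were smaller in size than their SE in the main fit. The largest was the -0.55 (SE 0.94) of Cidea in KO_HFD_LNAME over WT_CD. Without WT_CD 1 and 2 they were -0.45 for Pank1 and -0.14 for Ebf2 in WT_HFD_LNAME over WT_CD, and -0.12 for Ppargc1a, 0.10 for Prdm16, -0.063 for Elovl3 and -0.19 for Ebf2 in KO_HFD_LNAME over WT_CD. Without WT_HFD_LNAME 3 and 4, Elovl3 was 0.97 in KO_HFD_LNAME over WT_HFD_LNAME and -0.87 in WT_HFD_LNAME over WT_CD. With the adipocyte covariate, Elovl3 was 0.21, -0.54 and -0.33 in the 3 comparisons in the order above, Ebf2 0.11 and -0.050 in the first and second, and Prdm16 0.025 in KO_HFD_LNAME over WT_CD. With single libraries left out, KO_HFD_LNAME over WT_HFD_LNAME ran from -0.24 to 0.40 for Ucp1, -0.77 to 0.99 for Elovl3 and -0.27 to 0.18 for Ebf2, and Cidea relative to Adipoq from -0.37 to 0.27. WT_HFD_LNAME over WT_CD ran from -0.52 to 1.05 for Cidea, -0.90 to 0.88 for Elovl3, -0.094 to 1.58 for Pank1 and -0.0044 to 0.59 for Ebf2. KO_HFD_LNAME over WT_CD ran from -0.94 to 0.57 for Cidea, -0.38 to 0.57 for Elovl3, -0.76 to 0.92 for Pank1 and -0.17 to 0.10 for Prdm16.

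Replicate numbers did not pair the libraries: deviations of same-numbered libraries correlated from -0.23 to 0.59, and 0 of 6, 4 of 8 and 1 of 6 libraries correlated best with their own number. With the replicate block, called genes numbered 1, 42 and 13, Elovl3 was 0.18 in KO_HFD_LNAME over WT_HFD_LNAME, Cidea was 0.22 in WT_HFD_LNAME over WT_CD, and Cidea and Pank1 were 0.017 and 0.034 in KO_HFD_LNAME over WT_CD. RLE size factors and removal of Rn45s and mitochondrial genes turned the sign of 0 of 27 member values. At these depths no difference in Zic1 could be detected, and with 3 or 4 libraries a group the 95% interval of Ucp1 spans over 4 log2 units.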
